A study of Mus musculus with 12 samples.

Results

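The nuclear genome encodes most subunits of the mitochondrial respiratory chain, and 86 of the 54547 deposited genes belong to it here. They were chosen by symbol (Nduf, Sdh, Uqcr, Cox4 to Cox8 and Atp5), without using any measured value, and carry 83 distinct symbols. By symbol, 37 belong to complex I, 4 to complex II, 9 to complex III, 18 to complex IV and 18 to complex V. Of these, 80 passed the filter on low values, a normalized count of 10 or more in 3 or more libraries, and were tested. The other 6 are Ndufs3, a complex I core subunit, Uqcrc1, a complex III core protein, and Atp5a1, the alpha subunit of the ATP synthase, each listed under 2 gene IDs. Their normalized counts lay between 0 and 5.6 in all 12 libraries, so these 3 genes could not be measured.

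RNA was sequenced from sorted cells of mice on a mixed 129;C57BL/6 background, in 4 groups of 3 libraries. Tumor-bearing mice carried Msi1-CreER;RasV12, and both GFP+ cells and CD11b+ phagocytes were sorted from their brain tumors. In these mice an inducible Cre recombinase driven by Musashi-1, a gene of neural stem and progenitor cells, is combined with an oncogenic Ras. The sources used do not give cell numbers, gates or ages. The control populations were GFP+ cells and CD11b+ phagocytes from the cerebellum of mice with Msi1-CreER;GFP. Msi1-CreER was shared by all 4 groups, and tissue and RasV12 differ together, so they cannot be told apart. Whether the 3 libraries of a group stem from different animals is not stated, and the spread behind each p-value may therefore be technical. Itgam, which encodes CD11b, had normalized counts of 1350.2 to 3101.3 in RasV12 CD11b+ libraries and 5009.8 to 5256.1 in control CD11b+ libraries, against 0 to 0.5 in all GFP+ libraries.

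Complex I takes electrons from NADH and complex II from succinate, complex III passes them to cytochrome c, and complex IV hands them to oxygen. Complexes I, III and IV pump protons, and complex V, the ATP synthase, uses the proton gradient to make ATP. Complexes I, III, IV and V also hold a few subunits encoded by mitochondrial DNA, and neurons of the brain depend strongly on this chain for ATP. Several complex IV subunits exist as paired isoforms, a widely used form and one known from heart and muscle, lung or testis.

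The promoters of these genes are known for sites of NRF1, of ETS factors such as GABP, and of YY1. RefSeq windows from 250 bases before to 50 bases after the gene start (build GRCm38.p6) were found for 64 of the 80 tested genes. The motifs searched, on both strands, were GCGCA followed after any 1 base by GCGC for NRF1, CCGGAAGT for ETS factors and AAGATGGC for YY1. At least 1 of them was present in 39.1% of the 64 windows and in 10.8% of all 27025 windows of the table. The NRF1 motif stood in 23.4% of the windows of respiratory chain genes and in 4.78% of all windows, the ETS motif in 6.25% and 4.0%, and the YY1 motif in 12.5% and 2.88%. The NRF1 and ETS motifs contain the letters CG. The median window held CG 19 times among respiratory chain genes and 7 times among all windows. The part of this in the motif shares was not tested. Of the tested genes that were lower in RasV12 GFP+ cells, 16 had a window and 43.8% of these held a motif, beside 37.5% of the 48 windows of the genes that did not pass. The windows of 4 genes are shown because their values carry the results: Cox8a, Cox6a1 and Ndufb8, which were lower in RasV12 GFP+ cells, and Cox6b2, whose RasV12 GFP+ libraries all lay above the control GFP+ libraries. Capitals mark the motifs. All 4 genes lie on the minus strand, at chr19:7217567-7217866 (Cox8a), chr5:115348909-115349208 (Cox6a1), chr19:44555393-44555692 (Ndufb8) and chr7:4753045-4753344 (Cox6b2).
Cox8a: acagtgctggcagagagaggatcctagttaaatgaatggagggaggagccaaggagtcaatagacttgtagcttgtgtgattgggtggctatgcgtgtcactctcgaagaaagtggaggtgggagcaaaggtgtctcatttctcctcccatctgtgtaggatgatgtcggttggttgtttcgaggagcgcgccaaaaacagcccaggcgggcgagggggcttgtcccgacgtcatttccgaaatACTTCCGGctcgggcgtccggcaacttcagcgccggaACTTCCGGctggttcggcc
Cox6a1: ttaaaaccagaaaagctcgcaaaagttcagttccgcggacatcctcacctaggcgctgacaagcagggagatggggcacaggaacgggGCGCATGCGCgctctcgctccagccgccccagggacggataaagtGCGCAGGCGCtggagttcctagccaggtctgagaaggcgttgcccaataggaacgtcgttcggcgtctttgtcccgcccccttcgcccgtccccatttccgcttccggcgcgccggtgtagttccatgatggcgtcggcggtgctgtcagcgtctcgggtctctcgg
Ndufb8: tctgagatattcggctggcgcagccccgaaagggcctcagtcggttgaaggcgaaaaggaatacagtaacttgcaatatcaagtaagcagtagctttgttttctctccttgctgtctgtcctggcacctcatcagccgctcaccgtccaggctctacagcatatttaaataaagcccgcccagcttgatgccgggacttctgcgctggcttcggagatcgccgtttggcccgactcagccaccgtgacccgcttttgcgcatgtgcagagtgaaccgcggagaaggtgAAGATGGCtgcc
Cox6b2: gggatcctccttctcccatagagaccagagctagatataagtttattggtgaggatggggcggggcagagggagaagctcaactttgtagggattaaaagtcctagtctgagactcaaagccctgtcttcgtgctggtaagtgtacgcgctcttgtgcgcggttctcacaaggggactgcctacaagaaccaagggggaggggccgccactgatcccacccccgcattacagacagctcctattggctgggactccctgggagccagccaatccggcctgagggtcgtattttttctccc
The Cox8a window held 2 ETS motifs, the Cox6a1 window 2 NRF1 motifs and the Ndufb8 window 1 YY1 motif. None of the 3 motifs stood in the Cox6b2 window. These are matches of letters and describe the windows only.

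Library totals were 2951629 to 34601205 reads, the lowest in RasV12 CD11b+ libraries 1 and 2, where the median respiratory chain gene had 87 and 53 reads. In the other libraries that median was 326 to 7817.5 reads. Reads in 1768 olfactory and vomeronasal receptor genes, whose RNA is mainly known from nasal sensory neurons, were 2.4 to 3.19% of all reads in RasV12 CD11b+ libraries and 1.84% in control CD11b+ library 2. They were 0.174 and 0.183% in the other control CD11b+ libraries and 0.0246 to 0.162% in the GFP+ libraries. At the length of each respiratory chain gene, this receptor level came to a median of 30.3%, 42.0% and 17.7% of the gene's value in RasV12 CD11b+ libraries 1, 2 and 3 and 12.8% in control CD11b+ library 2, and at most 1.76% elsewhere. Its part in the CD11b+ values was not tested beyond the subtraction given with the results. Reads cannot be assigned to a strand, so an overlapping antisense gene would add to a value. At least 10% of 50-base stretches are shared with another annotated gene in 19 of the 83 genes with an annotation, most in Atp5o with 41.6% and Atp5g2 with 38.3%. Their values are uncertain to that extent.

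Nuclear respiratory chain genes took a smaller part of the reads in RasV12 than in control GFP+ cells. The 86 genes took 1.63, 1.55 and 1.41% of the reads outside mitochondrial DNA in RasV12 GFP+ libraries, against 3.52, 3.58 and 3.85% in control GFP+ libraries. The groups did not overlap, and the means were 1.53% ± 0.111 and 3.65% ± 0.176 (SD, n = 3 each). In CD11b+ cells the share was 0.354, 0.248 and 0.544% in RasV12 libraries and 0.609, 0.405 and 0.376% in control libraries, which overlapped. In each of the 5 complexes the 3 RasV12 GFP+ libraries lay below the 3 control GFP+ libraries, as the plot of read shares by complex shows. In sorted bulk cells, fewer cells of a type and less RNA per cell cannot be told apart.

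**Figure D1:**
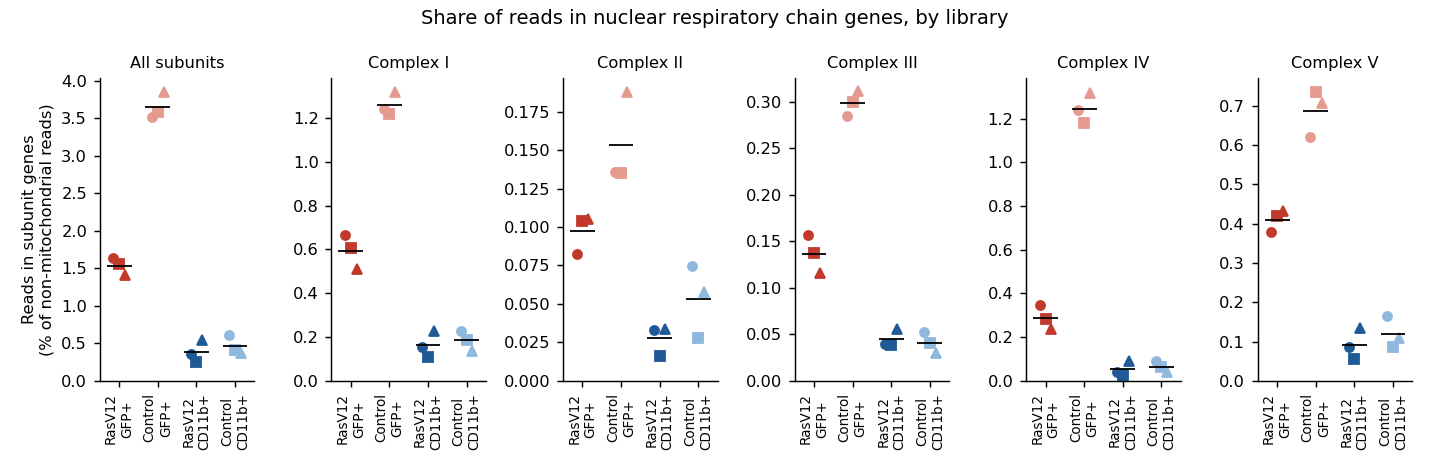
Reads in nuclear respiratory chain genes as a percentage of all reads outside mitochondrial DNA (y axis, from 0) for all 86 genes and for each complex. Each point is 1 library and each line the mean of 3. RasV12 GFP+ libraries lie at 1.41 to 1.63% for all genes and control GFP+ libraries at 3.52 to 3.85%, while both CD11b+ groups lie between 0.248 and 0.609%.

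The balance between the complexes differed too. Of the FPKM of all respiratory chain genes, which is a level per gene length, complex IV made up 28.3, 26.2 and 26.2% in RasV12 GFP+ libraries, against 47.3, 44.8 and 46.3% in control GFP+ libraries. No RasV12 library came near a control one. Complex I took the larger part in RasV12 GFP+ libraries, at 45.2, 44.3 and 42.3%, against 33.3, 33.9 and 33.6% in control GFP+ libraries. Complex V made up 11.8 to 15.8% in RasV12 GFP+ libraries and 7.91 to 9.26% in control GFP+ libraries. Complex II, the smallest part, made up 3.13, 4.32 and 4.96% in RasV12 GFP+ libraries, against 2.02, 1.83 and 2.39% in control GFP+ libraries, with no overlap. In CD11b+ cells complex IV held 18.8 to 26.3% in RasV12 libraries and 19.0 to 23.7% in control libraries. Of the 4 groups, the control GFP+ libraries had the highest share of complex IV, with no overlap. These shares are ratios within a library, so a scaling by 1 factor per library does not move them. They weigh the genes with the highest FPKM most. In control GFP+ cells Cox8a, Cox6a1, Cox4i1 and Cox6b1 had mean FPKM of 4359.7, 3462.0, 1937.1 and 1613.5, of 13085 in complex IV. In RasV12 GFP+ cells they had 419.1, 497.4, 349.3 and 373.2, of 2117.9. Shares without these genes were not computed, and Ndufs3, Uqcrc1 and Atp5a1 could not be measured.

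**Figure D2:**
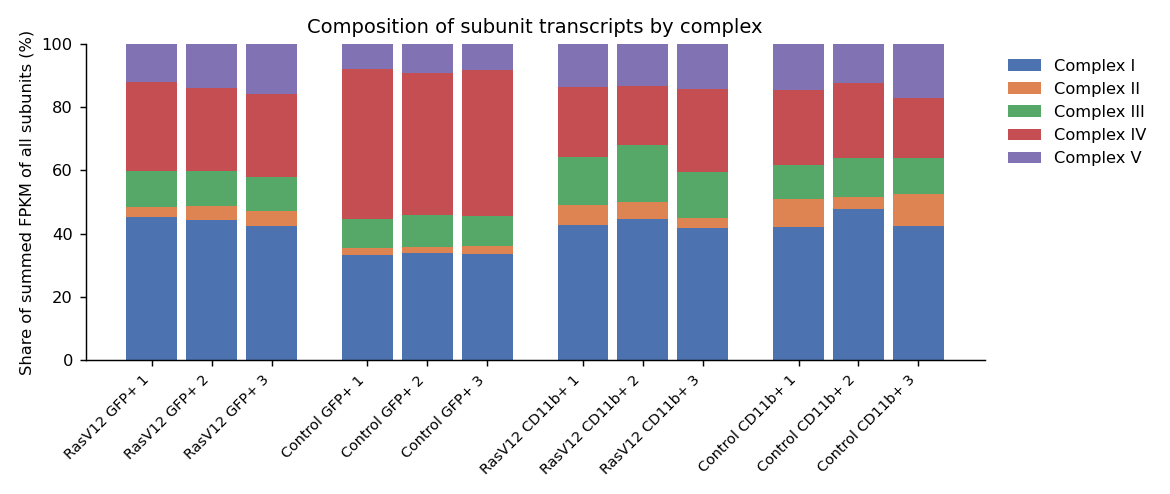
Share of the summed FPKM of all nuclear respiratory chain genes (y axis, %) held by each complex, as 1 stacked bar per library. Complex IV spans 26.2 to 28.3% in RasV12 GFP+ libraries and 44.8 to 47.3% in control GFP+ libraries.

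The level of the summed FPKM behind these shares was 2117.9 ± 338.5 for complex IV in RasV12 GFP+ cells and 13085 ± 114.1 in control GFP+ cells (SD, n = 3 each). For complex I it was 3458.1 ± 521.2 in RasV12 GFP+ cells and 9533.8 ± 261.2 in control GFP+ cells. Complex III had 878.8 ± 137.3 in RasV12 GFP+ cells and 2768.5 ± 185.9 in control GFP+ cells. Complex V had 1072.6 ± 32.6 in RasV12 GFP+ cells and 2402.5 ± 248.0 in control GFP+ cells, and complex II had 319.0 ± 39.0 and 590.1 ± 78.9. In FPKM as deposited, each complex was thus lower in RasV12 GFP+ cells by more than the spread between libraries. Other scalings were not applied to these sums. In control GFP+ cells the 4 genes with the highest mean FPKM were all of complex IV: Cox8a, Cox6a1, Cox4i1 and Cox6b1. In RasV12 GFP+ cells they were Cox6a1, Cox8a, Ndufa2 and Cox6b1. Cox6a1 had 579.9, 499.2 and 413.2 FPKM in the RasV12 GFP+ libraries and Cox8a 445.2, 433.7 and 378.3, so Cox6a1 was above Cox8a in each of the 3.

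Gene by gene, 20 of the 80 tested genes were lower in RasV12 than in control GFP+ cells, and 0 were higher (limma-trend, Benjamini-Hochberg adjusted p under 0.05 over 29835 genes). That is 25.0% of these genes, where 2.65% of all tested genes were lower and 4.14% higher. At an unadjusted p under 0.05, 47 were lower and 0 higher, and the number higher was 0 with edgeR and 1, Cox6b2, with DESeq2. By complex, 8 of 35 were lower in complex I, 0 of 4 in complex II, 4 of 7 in complex III, 7 of 18 in complex IV and 1 of 16 in complex V. The median log2 fold change of the 80 genes was -1.30, beside 0.56 over all tested genes. It was -2.13 in complex IV, -1.54 in complex III, -1.25 in complex I, -1.15 in complex V and -1.12 in complex II. All 3 RasV12 GFP+ libraries lay below all 3 control GFP+ libraries for 70 genes (10.9% of all tested genes did so) and above them for 1 gene, Cox6b2 (17.2% of all tested genes). A median of -0.76 or lower was kept under each scaling tried, but the number of genes lower depended on the test: 53 in a fit of the 6 GFP+ libraries alone, 34 with DESeq2, 8 after upper-quartile scaling, 5 with edgeR and 1 after quantile normalization. It was 10, 8 and 7 without RasV12 GFP+ library 1, 2 or 3 and 11, 9 and 10 without control GFP+ library 1, 2 or 3. The median of all tested genes, 0.56 as deposited, was 0.91 after upper-quartile scaling and -0.12 after quantile normalization.

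**Figure D3:**
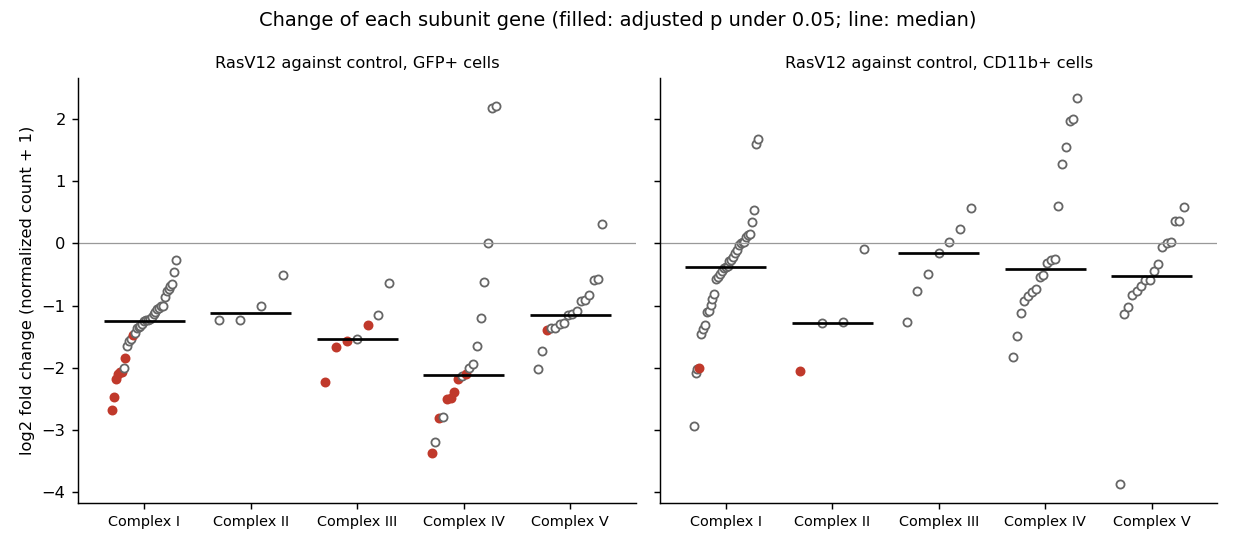
log2 fold change of the normalized count + 1 (y axis) of each tested gene, ordered within its complex, RasV12 over control in GFP+ cells (left) and in CD11b+ cells (right). Filled points passed an adjusted p under 0.05 and lines are medians. In GFP+ cells the medians run from -2.13 in complex IV to -1.12 in complex II, and in CD11b+ cells from -1.28 in complex II to -0.16 in complex III.

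Cox8a, the form of complex IV subunit VIII used in most tissues, changed the most among the genes that passed. Its normalized counts were 4045.4, 3941.0 and 3437.7 in RasV12 GFP+ libraries, against 41782.9, 36852.7 and 40205.9 in control GFP+ libraries. The 3 RasV12 values were tightly grouped and the mean in control cells was 10.4 times theirs. The log2 fold change was -3.38 ± 0.42 (SE, adjusted p = 0.000475), and it passed in 26 of 26 alternative analyses (adjusted p at most 0.0252). Cox8a lies at chr19:7215153-7217616 on the minus strand (GRCm38) and shares 0% of its 50-base stretches with another annotated gene.

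Cox6a1, the complex IV subunit VIa form of most tissues, had normalized counts of 6787.1, 5843.0 and 4836.4 in RasV12 GFP+ libraries, against 40641.4, 39316.4 and 41600.7 in control GFP+ libraries. The groups were far apart, with a log2 fold change of -2.81 ± 0.61 (adjusted p = 0.0144), and 20 of 26 alternatives passed (adjusted p 0.000596 to 0.351). Cox4i1, the common form of subunit IV, which binds ATP in the regulation of the enzyme, had 10902.5, 8377.3 and 7802.7 in RasV12 GFP+ libraries and 51691.1, 48703.6 and 49779.0 in control GFP+ libraries. Its log2 fold change was -2.49 ± 0.41 (adjusted p = 0.00285). The other complex IV genes that fell were Cox5b, a zinc-binding nuclear subunit (-2.50 ± 0.45), Cox7b (-2.39 ± 0.50), Cox6c (-2.19 ± 0.56) and Cox6b1 (-2.11 ± 0.47), with adjusted p between 0.00475 and 0.032. Cox7c (-2.0 ± 0.62, adjusted p = 0.075), Cox7a2 (-1.94 ± 0.56, adjusted p = 0.0544) and Cox5a (-1.20 ± 0.72, adjusted p = 0.421) did not pass with limma-trend, although their groups did not overlap. Cox7a2 passed in 6 of 26 alternatives (adjusted p 0.0154 to 0.47).

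Among complex I genes, Ndufb9, an accessory subunit of the membrane arm, had normalized counts of 3058.7, 2671.9 and 2420.9 in RasV12 GFP+ libraries, against 15785.0, 18991.8 and 17537.8 in control GFP+ libraries. The groups lay apart, with a log2 fold change of -2.68 ± 0.39 (adjusted p = 0.00133), and 25 of 26 alternatives passed. It shares 15.6% of its 50-base stretches with another gene. Ndufb8, another membrane-arm subunit, had 2424.2, 2788.2 and 2414.8 in RasV12 GFP+ libraries and 13899.3, 14892.8 and 13551.9 in control GFP+ libraries. Its log2 fold change was -2.47 ± 0.41 (adjusted p = 0.00294). Ndufa4, which is counted with complex I by its name and is known to sit in complex IV, had 5218.7, 4373.2 and 4195.5 in RasV12 GFP+ libraries, against 23091.3, 18020.6 and 21880.7 in control GFP+ libraries (-2.19 ± 0.42, adjusted p = 0.00704). Ndufv3, an accessory subunit of the NADH-oxidizing module, fell by 2.08 ± 0.40 on the log2 scale (adjusted p = 0.0074).

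Core genes of complex I did not pass with limma-trend. The log2 fold changes of 5 of them, whose proteins hold iron-sulfur clusters or the flavin, were -1.54 for Ndufs7, -1.22 for Ndufv1, -0.87 for Ndufs1, -0.74 for Ndufv2 and -0.66 for Ndufs8. Adjusted p lay between 0.0673 and 0.705, with standard errors of 0.39 to 1.24. These errors draw on the spread in all 4 groups, the CD11b+ libraries included. Ndufv1, with the largest error, had normalized counts of 258.5, 5.5 and 775.3 in RasV12 CD11b+ libraries. All 3 RasV12 GFP+ libraries were below all control GFP+ libraries for 4 of these 5, Ndufs1 being the exception. Ndufc2, a membrane-arm subunit, had the smallest fold change of complex I, with normalized counts of 3261.9, 5975.4 and 4364.3 in RasV12 GFP+ libraries and 6264.0, 4348.4 and 5416.3 in control GFP+ libraries, which overlapped (-0.26 ± 0.42). A change of that size is within its standard error.

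In complex II, which oxidizes succinate and has no subunit from mitochondrial DNA, none of the 4 genes passed (limma-trend, 3 of them lower at an unadjusted p under 0.05). The log2 fold changes were -1.23 ± 0.53 for Sdha, the flavoprotein, -1.01 ± 0.46 for Sdhb, the iron-sulfur subunit, and -1.24 ± 0.56 and -0.51 ± 0.59 for the membrane anchors Sdhc and Sdhd. In complex III, Uqcrfs1, the Rieske iron-sulfur protein, fell by 1.32 ± 0.37 on the log2 scale (adjusted p = 0.0473). The small subunits Uqcr11 (-2.23 ± 0.62), Uqcr10 (-1.67 ± 0.43) and Uqcrq (-1.57 ± 0.43) also fell, with adjusted p of 0.0332 to 0.0482. Uqcrc2, a core protein, had -0.63 ± 0.50 (adjusted p = 0.594). These 4 complex III calls are close to the threshold.

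Of the 16 genes counted with complex V by symbol, 1 passed. This was Atp5o, which joins the catalytic head to the stalk and fell by 1.39 ± 0.39 on the log2 scale (adjusted p = 0.0487), and it is the gene with the most shared sequence. Atp5b, the catalytic beta subunit, had normalized counts of 11201.4, 18700.8 and 24658.5 in RasV12 GFP+ libraries, against 31875.2, 45227.8 and 37937.3 in control GFP+ libraries. The groups did not overlap, yet the log2 fold change of -1.13 ± 0.67 did not pass (adjusted p = 0.411). Its standard error draws on the spread in all 4 groups. The control CD11b+ libraries, which are not part of this comparison, had 10820.0, 890.6 and 7427.2 normalized counts of Atp5b. Atp5c1, the central stalk, had -1.36 ± 0.39 (adjusted p = 0.0566). Of the 3 genes for the same membrane ring subunit c, Atp5g1 had -2.02 ± 0.70, Atp5g3 -1.28 ± 0.40 and Atp5g2 -0.83 ± 1.04, none of which passed with limma-trend. Over 26 alternatives Atp5g1 passed in 3 (adjusted p 0.00521 to 0.35), Atp5g3 in 3 (adjusted p 0.0114 to 0.638) and Atp5g2 in 0 (adjusted p 0.277 to 0.969). Atp5g1 made up 2.91 to 3.58% of the FPKM of these 3 genes in RasV12 GFP+ libraries and 4.44 to 6.52% in control GFP+ libraries.

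**Figure D4:**
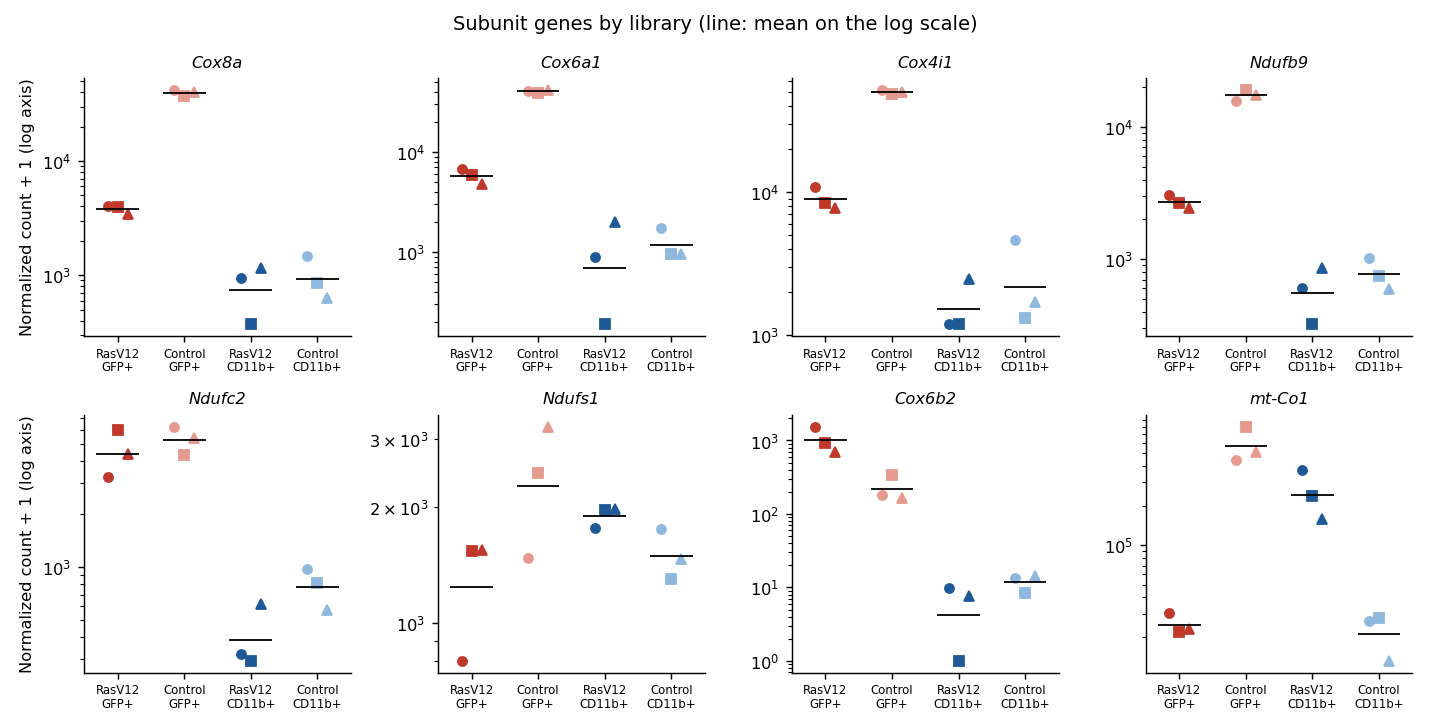
Normalized count + 1 (log y axis) of 7 nuclear respiratory chain genes and of the mitochondrially encoded mt-Co1, with 1 point per library and a line at the mean on the log scale. Cox8a, Cox6a1, Cox4i1 and Ndufb9 lie lower in all RasV12 GFP+ than in all control GFP+ libraries, Cox6b2 lies higher, and Ndufc2 overlaps. mt-Co1 is lower in RasV12 than in control GFP+ libraries and higher in RasV12 than in control CD11b+ libraries.

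Of the 80 genes, 3 had a log2 fold change above 0 in GFP+ cells, Cox6b2, Cox8b and Atp5s, and none of them passed with limma-trend. Cox6b2, a form of subunit VIb known mainly from testis, was the 1 whose groups did not overlap. Its normalized counts were 1531.8, 936.1 and 699.2 in RasV12 GFP+ libraries and 182.3, 334.4 and 164.8 in control GFP+ libraries, so the groups did not overlap. The log2 fold change was 2.21 ± 1.04 and did not pass (adjusted p = 0.271). Over 26 alternatives the adjusted p ran from 0.00197 to 0.559 and passed in 3, DESeq2, the fit of the 6 GFP+ libraries alone, and the fit without 3 CD11b+ libraries. In all of these analyses the value was higher in RasV12 cells. Within the pair Cox6b1 and Cox6b2, Cox6b2 made up 16.3, 12.3 and 10.2% of the FPKM in RasV12 GFP+ libraries, against 0.667, 0.973 and 0.58% in control GFP+ libraries. The share was 0 to 1.32% in RasV12 CD11b+ libraries and 0.523 to 1.27% in control CD11b+ libraries. The share depends on Cox6b1, which fell, as well as on Cox6b2. Cox6b2 shares 0% of its 50-base stretches with another annotated gene.

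**Figure D5:**
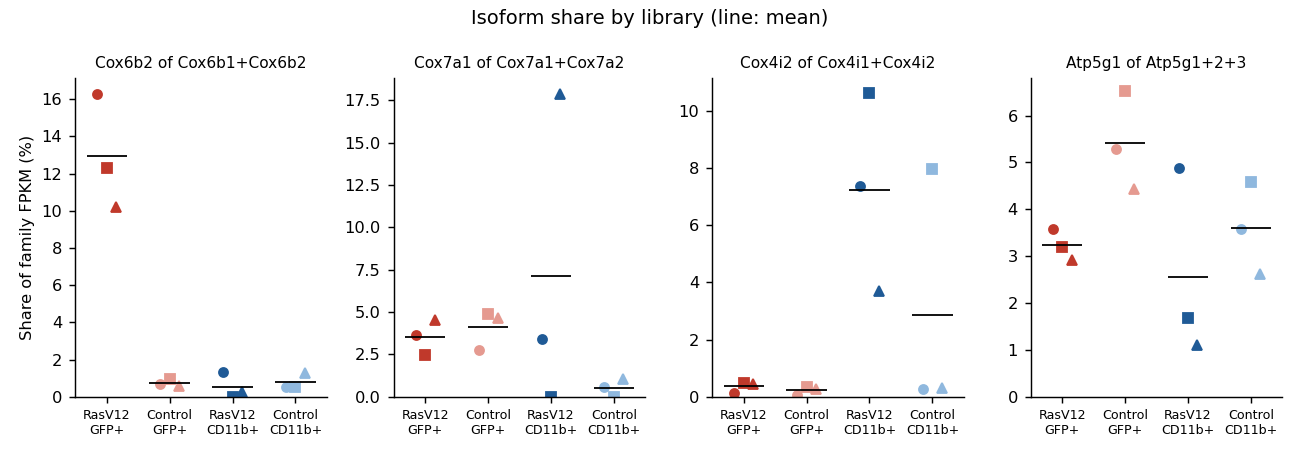
Share of the FPKM of an isoform family (y axis, %) held by the named isoform, 1 point per library, with lines at the means. Cox6b2 holds 10.2 to 16.3% in RasV12 GFP+ libraries and 0.58 to 0.973% in control GFP+ libraries, Atp5g1 holds 2.91 to 3.58% and 4.44 to 6.52%, and the Cox7a1 and Cox4i2 shares overlap between these groups.

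In GFP+ cells other isoforms of restricted use were low. Cox7a1, the heart and muscle form of subunit VIIa, made up 2.46 to 4.51% of the FPKM of Cox7a1 and Cox7a2 in RasV12 GFP+ libraries and 2.74 to 4.88% in control GFP+ libraries. Cox4i2, the lung form of subunit IV, made up 0.142 to 0.491% of its pair in RasV12 GFP+ libraries and 0.0699 to 0.344% in control GFP+ libraries. Both ranges overlapped between the GFP+ groups. In CD11b+ cells Cox7a1 made up 0 to 17.9% of its pair in RasV12 libraries and 0 to 1.05% in control libraries. Cox4i2 made up 3.7 to 10.6% of its pair in RasV12 CD11b+ libraries and 0.277 to 7.96% in control CD11b+ libraries. Cox8b, the heart and muscle form of subunit VIII, had normalized counts of 21.7, 17.2 and 18.2 in RasV12 GFP+ libraries and 0.6, 51.3 and 0 in control GFP+ libraries, which overlapped (2.19 ± 1.52). Cox8c, known from testis, had no read in any GFP+ library. In the CD11b+ libraries with receptor reads, Cox4i2 (49.0, 72 and 49.2 in RasV12 CD11b+ and 58.4 in control CD11b+ library 2) compared with a receptor level at its length of 62.5, 72.1 and 47.1 in the RasV12 CD11b+ libraries and 30.0 in control CD11b+ library 2. It was near that level in the 3 RasV12 libraries and above it in the control library.

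A few genes that build or feed the chain, taken from lists chosen by function, passed in GFP+ cells. Among all tested genes 2.65% were lower and 4.14% higher, and the median log2 fold change was 0.56. Assembly factors of complexes I, II, III and V, the ATPase inhibitor included, had 0 of 27 genes higher or lower (limma-trend, 1 higher and 3 lower at an unadjusted p under 0.05), and their medians were -0.13 for complex I, 0.24 for complexes II and III and -1.09 for complex V. Of 15 complex IV assembly factors, Cox14 alone was lower (-1.65 ± 0.41, adjusted p = 0.0285), and the median was -0.01. Of 17 genes of the tricarboxylic acid cycle and pyruvate dehydrogenase, 2 were lower, among them Suclg1 of succinyl-CoA ligase (-1.80 ± 0.38, adjusted p = 0.0131), and the median was -0.54. Of 16 genes of mitochondrial biogenesis, Gabpb1, a subunit of the ETS factor GABP, was higher (1.79 ± 0.49, adjusted p = 0.0448), and the median of the list was 1.07. Ppargc1b, a coactivator of these genes, was lower, with 0, 4.6 and 5.4 normalized counts in RasV12 GFP+ libraries and 92.1, 70.6 and 224.8 in control GFP+ libraries (adjusted p = 0.0143). Of 11 membrane carriers and import genes and of 5 further subunits and cytochrome c genes, 0 passed (limma-trend, 2 lower at an unadjusted p under 0.05).

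The 13 subunits encoded by mitochondrial DNA were all lower in RasV12 GFP+ cells, with a median log2 fold change of -4.06. mt-Co1, the catalytic subunit of complex IV, had normalized counts of 30548.7, 21851.9 and 23076.7 in RasV12 GFP+ libraries, against 447047.6, 795433.1 and 511440.4 in control GFP+ libraries (-4.51 ± 0.32, adjusted p = 1.21e-05). After scaling to the sum of the other genes, 10 of the 80 nuclear genes were lower and their median was -0.93.

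Markers of other cell types also differed between the GFP+ groups. All 6 oligodendrocyte markers were lower in RasV12 GFP+ libraries, with summed normalized counts of 2841.8 to 17698.1, against 945811.9 to 1588020 in control GFP+ libraries. Of 8 neuron markers 7 were lower (sums 1603.3 to 2383.1 in RasV12 GFP+ libraries and 58513.4 to 76698.6 in control GFP+ libraries). Of 7 markers of astrocytes and Bergmann glia 3 were lower (35563.8 to 92218.3 in RasV12 GFP+ libraries and 263510.7 to 280915 in control GFP+ libraries). Erythroid markers were lower for 4 of 5 (82.9 to 506.8 in RasV12 GFP+ libraries and 8893.9 to 774410 in control GFP+ libraries), choroid plexus markers for 1 of 3 (8.2 to 83.2 and 24068.9 to 114060.2) and endothelial markers for 2 of 5 (1710 to 2616.6 and 5676.7 to 6853.7). Of 8 pan-myeloid markers 1 was higher (972.5 to 1802.7 in RasV12 GFP+ libraries and 192.2 to 844.0 in control GFP+ libraries), 0 of 6 for microglia and 0 of 5 for neutrophils (limma-trend, 1 and 0 higher at an unadjusted p under 0.05). At 0 in all libraries of a group were 1 choroid plexus and 1 microglia marker in RasV12 GFP+ cells, and 3 pan-myeloid, 2 microglia and 1 neutrophil marker in control GFP+ cells. The part of the cell types in the values of respiratory chain genes was not tested.

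In CD11b+ cells, few respiratory chain genes separated tumor from control. Of 80 genes, 2 were lower in RasV12 CD11b+ cells and 0 higher (limma-trend, 13 lower and 2 higher at an unadjusted p under 0.05, and 0 higher with edgeR and 2 with DESeq2), beside 2.39 and 2.97% of all tested genes. The 2.5% of genes lower is near that background. The median log2 fold change was -0.42, beside 0.74 over all tested genes. RasV12 libraries lay below control libraries for 6 genes and above for 2, Ndufc1 and Ndufs1, where 8.59 and 19.0% of all tested genes did so. Ndufs1 had 1760.2, 1966.0 and 1977.7 in RasV12 CD11b+ libraries and 1756.7, 1297.7 and 1462.6 in control CD11b+ libraries. The receptor level at its length was 641.2, 739.9 and 483.5 in the former and 37.7, 308.1 and 39.0 in the latter. Without RasV12 CD11b+ libraries 1 and 2 and control CD11b+ library 2, which leaves 1 RasV12 library, the median was 0.07. It was -0.07 without RasV12 CD11b+ library 2 and -0.10 without control CD11b+ library 1, and -0.75 without RasV12 CD11b+ library 3. It was -1.04 after upper-quartile scaling, -1.13 after quantile normalization, -1.13 with edgeR and -0.96 after subtraction of the receptor level, with all tested genes at 0.19, 0.13, 0.35 and -0.55.

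Ndufs7, a core subunit of complex I with an iron-sulfur cluster, had normalized counts of 178.3, 221.5 and 341.7 in RasV12 CD11b+ libraries, against 1625.0, 502.9 and 1061.9 in control CD11b+ libraries. The groups did not overlap (-2.0 ± 0.47, adjusted p = 0.0287), and 20 of 26 alternatives passed (adjusted p 0.0013 to 0.151). Sdhc, the cytochrome b anchor of complex II, had 294.1, 88.6 and 125.5 in RasV12 CD11b+ libraries and 921.1, 326.3 and 781.5 in control CD11b+ libraries (-2.05 ± 0.56, adjusted p = 0.0491), and passed in 12 of 26 alternatives (adjusted p 0.00253 to 0.188). Both calls were lost in the fit of the 6 CD11b+ libraries alone, in which 0 of all tested genes passed. The number of respiratory chain genes lower was 0 without RasV12 CD11b+ library 2, without control CD11b+ library 1, without control CD11b+ library 3 or without RasV12 GFP+ library 2, 6 without RasV12 CD11b+ library 3 and 10 without control CD11b+ library 2. It was 1 without RasV12 CD11b+ library 1 or any of the other 5 GFP+ libraries.

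Marker sums differed here as well. Microglia markers summed to 15080.5 to 24406.9 in RasV12 CD11b+ libraries and 98532.9 to 302780.6 in control CD11b+ libraries (1 of 6 lower), and oligodendrocyte markers to 5597.2 to 9065.9 and 13070.6 to 15159.5 (1 of 6 lower). Neuron markers summed to 4294.7 to 9433.8 in RasV12 CD11b+ libraries and 1145.3 to 3620.7 in control CD11b+ libraries (1 of 8 higher). Endothelial markers summed to 2789.7 to 3721.7 in RasV12 CD11b+ libraries and 451.1 to 1228.9 in control CD11b+ libraries (1 of 5 higher), and 2 of 7 astrocyte and Bergmann glia markers were higher (8635.6 to 13120 and 5825.9 to 9045.1). Neutrophil markers summed to 2228.1 to 2936.2 in RasV12 CD11b+ libraries and 11389.3 to 20278.2 in control CD11b+ libraries (1 of 5 lower), with 2 of them at 0 in all RasV12 CD11b+ libraries. Pan-myeloid markers summed to 38916.6 to 68499.7 in RasV12 CD11b+ libraries and 74849.1 to 265610.9 in control CD11b+ libraries, with 0 of 8 past the threshold. Sums of erythroid and choroid plexus markers overlapped. The part of these cell types in the result was not tested.

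Cox8a had 949.2, 371.1 and 1156.7 normalized counts in RasV12 CD11b+ libraries and 1477.6, 847.2 and 631.7 in control CD11b+ libraries, which overlapped (-0.32 ± 0.42). Cox6a1 (-0.74 ± 0.61), Cox4i1 (-0.51 ± 0.41) and Ndufb9 (-0.49 ± 0.39) overlapped likewise. RasV12 CD11b+ library 3, the most deeply sequenced of its group, had 1997.5 normalized counts of Cox6a1, above all control CD11b+ libraries (1740.2, 946.0 and 960.7), so the direction of Cox6a1 rests on the other two. The 13 mitochondrially encoded subunits went the other way, all of them higher in RasV12 than in control CD11b+ cells with a median of 3.66, as the plot of genes by library shows for mt-Co1. Of related genes, Tmem126b, a complex I assembly factor, was lower (0, 0 and 45 normalized counts in RasV12 CD11b+ libraries and 555.0, 221.5 and 453.2 in control CD11b+ libraries, adjusted p = 0.0188). Pdhb, a pyruvate dehydrogenase subunit, was lower too (-2.10 ± 0.56, adjusted p = 0.0453).

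RNA of these genes was a smaller part of the reads in phagocytes than in GFP+ cells of the same tissue. In tumors 59 of 80 genes were lower in CD11b+ than in GFP+ cells and 1 was higher, where 10.2% of all tested genes were lower and 29.8% higher. The median log2 fold change was -2.25, beside 1.79 over all tested genes. RasV12 CD11b+ libraries lay below RasV12 GFP+ libraries for 65 genes and above for 4, Ndufb2, Ndufs1, Cox4i2 and Cox7b2, beside 14.8 and 36.0% of all tested genes. Of these, Cox4i2 was near the receptor level in RasV12 CD11b+ libraries. Ndufs1 had 1760.2, 1966.0 and 1977.7 there, with a receptor level at its length of 641.2, 739.9 and 483.5. In RasV12 GFP+ libraries Ndufs1 had 798.0, 1540.9 and 1543.2. Cox6b2 differed most among the genes that passed, with 8.9, 0 and 6.6 normalized counts in RasV12 CD11b+ libraries, against 1531.8, 936.1 and 699.2 in RasV12 GFP+ libraries (-7.89 ± 1.04, adjusted p = 0.000368). Ndufc2 (-3.50 ± 0.42), Ndufs7 (-3.08 ± 0.47), Ndufa4 (-2.85 ± 0.42) and Atp5f1, of the peripheral stalk (-2.31 ± 0.37), passed in 26 of 26 alternatives. The gene that was higher, Cox7b2, a testis form of subunit VIIb, had 271.8, 94.1 and 99.7 in RasV12 CD11b+ libraries and 28.5, 7.5 and 16.8 in RasV12 GFP+ libraries (3.06 ± 1.1, adjusted p = 0.0464). It passed in 7 of 26 alternatives (adjusted p 0.0125 to 0.735) and not after subtraction of the receptor level, where its adjusted p was 0.119.

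In control cerebellum 66 of 80 genes were lower in CD11b+ than in GFP+ cells and 0 higher (limma-trend, 68 lower and 0 higher at an unadjusted p under 0.05, and 0 higher with edgeR and DESeq2), where 6.91% of all tested genes were lower and 19.3% higher. The median was -3.02, beside 1.80 over all tested genes, and it was -3.92 in complex IV and -2.10 in complex II. For 70 genes all control CD11b+ libraries lay below all control GFP+ libraries (12.7% of all tested genes), and for 0 genes they lay above (32.9%). Cox8a had 1477.6, 847.2 and 631.7 in control CD11b+ libraries, against 41782.9, 36852.7 and 40205.9 in control GFP+ libraries (-5.42 ± 0.42, adjusted p = 5.84e-06). Cox6a1 (-5.12 ± 0.61), Ndufa4 (-4.67 ± 0.42), Cox4i1 (-4.52 ± 0.41) and Ndufb9 (-4.50 ± 0.39) were lower too. Ndufs1, the largest subunit of complex I, was among the 14 genes that did not pass, with 1756.7, 1297.7 and 1462.6 in control CD11b+ libraries and 1478.2, 2453.3 and 3226.0 in control GFP+ libraries (-0.60 ± 0.41). Sdha (-1.23 ± 0.53) and Ndufv1 (-2.46 ± 1.24) did not pass either.

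The RasV12 effect in CD11b+ cells minus that in GFP+ cells passed for 4 genes, all with a positive difference (limma-trend, 2.06% of all tested genes higher and 2.34% lower). The differences were 3.06 ± 0.59 for Cox8a (adjusted p = 0.0116), 2.62 ± 0.57 for Ndufv3 (adjusted p = 0.0206), 2.20 ± 0.55 for Ndufb9 (adjusted p = 0.0393) and 2.21 ± 0.58 for Ndufb8 (adjusted p = 0.0476). No difference in the other direction passed with limma-trend, with 1 negative at an unadjusted p under 0.05 (0 with edgeR, 1 with DESeq2). The number of positive differences was 1 without RasV12 GFP+ library 2 or 3 or control CD11b+ library 3, 2 without RasV12 GFP+ library 1 or any control GFP+ library, and 8 without control CD11b+ library 2. The median difference over the 80 genes was 1.04, beside 0.07 over all tested genes. It was -0.13 after upper-quartile and -0.10 after quantile scaling, so its direction depends on the scaling. All tested genes had medians of -0.84 and 0.16 under these scalings. With edgeR the median was 0.15 for the 80 genes and -0.98 for all tested genes.

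Median fold changes differed between short and long genes. In GFP+ cells the 40 genes with an exon length up to 1522.5 bases had a median log2 fold change of -1.61 for RasV12 against control, with 13 genes lower, and the 40 longer ones -1.23 with 7 lower. For CD11b+ against GFP+ cells of control cerebellum the medians were -3.50 for the shorter and -2.62 for the longer genes. The part of length in these values was not tested.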

How the data were processed

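The 12 libraries were made with SMARTer Universal Low Input and Nextera XT kits per the labels' protocols, which do not mark strand. Per the submitters' processing notes, the tools were HISAT2 2.1.0, bcl2fastq 2.17.1.14, DESeq2 1.20.0, featureCounts and Subread 1.6.2, with build GRCm38.p6; their roles are not given in the sources used. Deposited by the authors were 1 table of normalized counts, a signal of read counts divided by 1 factor per library, and 1 table of FPKM. At least 99.981% of the normalized counts up to 5000 were whole multiples of 1 step per library (tolerance 0.05), which gave the reads.

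The test was limma-trend on the log2 of the normalized count plus 1 (R 4.3.3, limma 3.58.1). All 12 libraries entered the fit with a term for each of the 4 groups. Each standard error thus draws on the spread in all 4 groups, also those not compared. The fit covered the 29835 genes with at least 10 in 3 or more libraries, with Benjamini-Hochberg adjustment over all of them. Fold changes are on this scale and understate changes of low genes. Scripts were tested on simulated data. Count tests on the recovered reads (edgeR 4.0.16 quasi-likelihood with TMM, DESeq2 1.42.0) were alternatives. For RasV12 against control GFP+ cells edgeR called 713 genes higher and 433 lower. Other alternatives were pseudocounts, filters, scalings, the FPKM table with log2(FPKM + 0.1), subtraction of the receptor level, fits of 6 libraries, a replicate block and leaving out each library. Leaving out RasV12 CD11b+ libraries 1 and 2 with control CD11b+ library 2 was chosen after seeing the data.

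Genes named were up to 10 per direction and comparison with the smallest adjusted p, core subunits, isoforms, the highest and lowest gene of each complex, and passing genes of related lists; the text gives a selection, and the values of some of these genes are not reported here. Genes singled out because they moved least or because their groups did not overlap were chosen after their values were seen. The genes and lists were chosen with earlier results of these data known. Levels of receptor reads used exon lengths of GENCODE annotation of GRCm38.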

Additional observations from a re-analysis of the deposited data

Results flagged for a closer look

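The RasV12 effect of 4 respiratory chain genes differed between the cell types, by the test of the difference itself (limma-trend, adjusted over all tested genes). The effect in CD11b+ cells minus that in GFP+ cells was 3.06 for Cox8a, 2.62 for Ndufv3, 2.20 for Ndufb9 and 2.21 for Ndufb8 on the log2 scale. For Cox8a the RasV12 effect was -0.32 ± 0.42 in CD11b+ cells and -3.38 ± 0.42 in GFP+ cells, and for Ndufv3 it was 0.54 ± 0.40 and -2.08 ± 0.40. For Ndufb9 it was -0.49 ± 0.39 in CD11b+ cells and -2.68 ± 0.39 in GFP+ cells, and for Ndufb8 -0.26 ± 0.41 and -2.47 ± 0.41. Over 25 alternatives the difference passed in 22 for Cox8a, 19 for Ndufv3, 10 for Ndufb9 and 8 for Ndufb8, with adjusted p up to 0.209, 0.212, 0.492 and 0.445. None of the 80 genes passed after upper-quartile or quantile scaling or with edgeR.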

How the results depend on the processing

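Each comparison had 26 alternatives, the difference of effects 25, and the cause of the changes below was not tested. For RasV12 against control GFP+ cells, 20 genes were lower; the number was 11 with no filter, 8 after upper-quartile scaling (median -0.76), 1 after quantile normalization (median -0.97), 10 after scaling to the sum without mitochondrial genes (median -0.93), 6 after subtraction of the receptor level, 53 with 1 higher in the fit of the 6 libraries, 5 with edgeR, 34 with 1 higher with DESeq2 and 45 with 1 higher without the 3 CD11b+ libraries. Leaving out 1 library gave 7 to 25. Of all 29835 tested genes, 792 were lower in the main fit, 592 after upper-quartile scaling and 529 after quantile normalization. That number was 614 after scaling to the sum without mitochondrial genes and 519 after subtraction. It was 1290 in the fit of the 6 libraries, 433 with edgeR and 1631 with DESeq2.

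For RasV12 against control CD11b+ cells, 2 genes were lower; the number was 1 with a pseudocount of 0.5, with no filter or with a replicate block, 5 after upper-quartile scaling or subtraction, 11 after quantile normalization and 0 in the fit of 6 libraries (limma-trend, 2 lower at an unadjusted p under 0.05). Genes higher were 1 with a pseudocount of 5 or the FPKM table and 2 with DESeq2. Without the 3 CD11b+ libraries 6 were lower and 4 higher, and the median turned to 0.07, beside -1.04 after upper-quartile scaling, -1.13 after quantile normalization, -1.13 with edgeR, -0.96 after subtraction and -0.75 to -0.07 when 1 library was left out. Leaving out 1 library gave 0 to 10 lower and 0 to 3 higher. Of all 29835 tested genes, 713 were lower in the main fit, 1489 after upper-quartile scaling and 2344 after subtraction. That number was 1682 after quantile normalization, 0 in the fit of 6 libraries and 1503 without control CD11b+ library 2. Higher were 886 in the main fit, 2438 with a pseudocount of 5, 1615 with the FPKM table and 1291 with DESeq2.

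For CD11b+ against GFP+ cells in tumors, the 1 gene higher became 2 with a pseudocount of 5, a filter of 50, the FPKM table, the fit of 6 libraries or without the 3 CD11b+ libraries, 3 with DESeq2, and 0 in the other scalings, with a pseudocount of 0.5, no filter, subtraction or edgeR, and 0 to 3 when 1 library was left out. The median was -3.07 after quantile normalization, -2.90 after subtraction, -3.13 with edgeR and -1.48 without the 3 CD11b+ libraries. In controls the median was -2.22 after upper-quartile scaling. For the difference of effects, 4 genes were higher; the number was 2 with no filter, scaling to the sum without mitochondrial genes, subtraction (1 lower, median 0.25) or a replicate block, 0 after upper-quartile scaling (median -0.13), quantile normalization (median -0.10) or with edgeR (median 0.15), 13 with 1 lower with DESeq2, 27 with 2 lower without the 3 CD11b+ libraries and 1 to 8 when 1 library was left out.

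Same-numbered libraries showed little shared deviation (r of -0.029 to 0.09 over genes). With 3 libraries per group, this cannot decide whether the numbers pair samples, and the main fit used no pairing. With the replicate block 14 genes were lower in RasV12 GFP+ cells, 59 lower and 1 higher in CD11b+ against GFP+ cells of tumors and 65 lower in those of controls. Not every named gene was followed through the alternatives. Of the 46 gene results that were, none changed direction. Cox8a and Cox6a1 in RasV12 against control CD11b+ cells were not among them. Depth limits the CD11b+ values: 13 of 80 genes had under 10 reads in RasV12 CD11b+ library 2, and 5 had none. The receptor level exceeded 50% of the value in 28, 29 and 12 of 80 genes in RasV12 CD11b+ libraries 1, 2 and 3.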
